A study of Mus musculus with 4 samples.

Results

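The comparison described here sets 1 responder library against 1 non-responder library, both from before therapy with an antibody against PD-1. These are 2 of the 4 libraries of the series, chosen by their labels for response and time. CD11a-high CD8+ T cells were sorted from patients' blood by flow cytometry, and each library was made from 1 ng of their RNA. The other 2 libraries come from a responder and a non-responder sampled after therapy, in which the antibody was dosed every 3 weeks and 4 doses made a cycle. Each group held 1 library, and the labels do not say whether the responder or the non-responder gave both a library before and a library after therapy. A PD-1-positive tag stands in the names of the earlier 2 libraries and not in those of the later 2, and a gate on PD-1 is not stated. The group label, which places these libraries before therapy, was used here, although a treatment label speaks of collection after a cycle for all samples. The organism field names mouse, but the files hold human genes on the build hg38. With 1 library a side there is no spread between replicates and no p-value is given, and an effect of response cannot be told apart from any other difference between 2 samples.

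CD8+ T cells kill infected or transformed cells through cytotoxic granules and death ligands. High CD11a, the integrin chain encoded by ITGAL, marks cells that have met antigen. PD-1, encoded by PDCD1, is an inhibitory receptor that such cells carry after repeated stimulation, and antibodies that block it are used against several cancers. Recent stimulation or stress of a T cell is followed within minutes to hours by immediate early transcription factors and by inhibitors that end the response.

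Levels are given as CPM, the count of a gene relative to the library total after TMM scaling, which corrects for library composition. Where 2 levels are joined by "versus", the responder comes first. Differences are log2 ratios of responder over non-responder, so that a positive value is a higher level in the responder, with a 95% interval that covers counting error alone. The responder library held 78912300 counts and the non-responder library 65500644, so for abundant genes these intervals are narrow, and they say nothing of the variation between people. The CD8 chains were abundant in both libraries. CD8A (ENSG00000153563, chromosome 2: 86784610 to 86808396) stood at 1109 versus 865 CPM before and 1562 versus 946 CPM after treatment (log2 ratio before therapy 0.36, interval 0.34 to 0.37). CD8B stood at 691 versus 638 CPM, CD3D at 820.2 versus 619 CPM, CD3E at 729 versus 556 CPM, CD3G at 288 versus 296 CPM and CD247 at 362 versus 266 CPM before therapy, all chains of the T cell receptor complex or its co-receptor. The integrin chains ITGAL and ITGB2 stood at 765 versus 679 CPM and 1592 versus 1666 CPM. Each of these genes lay within 1.36-fold between the libraries, in contrast to PDCD1, which was 6.30-fold higher in the responder.

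Of 12330 genes that reached 5 CPM in either library before therapy, 2515 genes (20.4%) differed by 2-fold or more. Of these, 1414 genes (11.5% of all) were higher and 1101 genes (8.93% of all) were lower in the responder library. The median log2 ratio of all 12330 genes was 0.06, and the median size of the ratio was 0.49. The pair after therapy had 14.7% of 12405 genes past 2-fold, with 5.78% higher and 8.88% lower in the responder, and a median size of 0.38. The direction varied with the level. Among genes with a mean of 1 to 5 CPM over the pair, 22.5% were higher and 22.6% lower by 2-fold or more. Among genes with a mean of 5 to 20 CPM over the pair, 16.6% were at least 2-fold higher and 10.1% at least 2-fold lower in the responder. Among genes with a mean of 100 to 500 CPM these shares were 3.04% and 7.26%, and above 500 CPM they were 3.23% and 10.6%. Genes higher in the responder made up 56.2% of the 2515 genes, but 34.9% (74 against 138 lower) of those among the 2068 genes with a mean of at least 100 CPM over the 4 libraries.

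**Figure D1:**
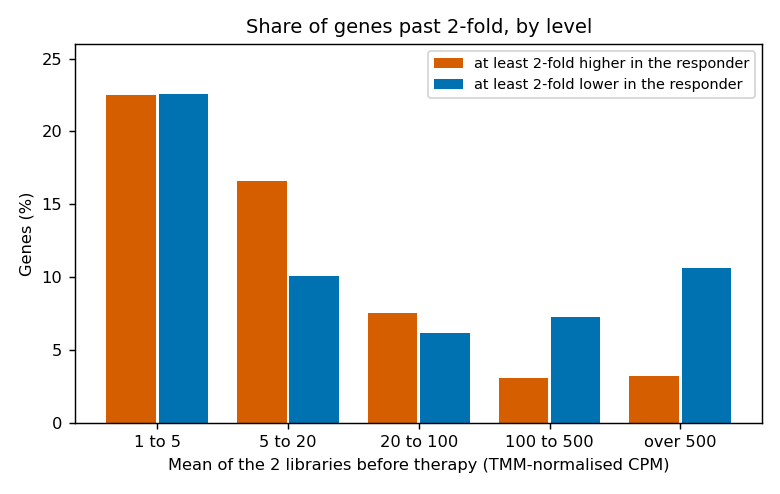
Bars give the share of genes at least 2-fold higher (orange) or lower (blue) in the responder library before therapy, on the y axis in percent, for genes grouped by the mean of the 2 libraries in TMM-normalised CPM. The share higher drops from 16.6% at 5 to 20 CPM to 3.04% at 100 to 500 CPM, where 7.26% are lower.

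The non-responder library before therapy held fewer detected genes than any other. It had a count for 26352 genes, against 30272 genes in the responder library. At the total of the non-responder library the responder library would be expected to show 29970 genes, and the later libraries 28278 (responder) and 28652 genes (non-responder). Of the 1414 genes higher in the responder, 25 genes were at 0 in the non-responder library although the responder level was at least 5 CPM. Among the 1101 genes lower in the responder, only 2 genes had no count in the responder library. Each gene was also set against the later libraries. For 650 of the 1414 higher genes (46.0%), the non-responder library lay at least 2-fold below all 3 other libraries, whereas the responder library lay at least 2-fold above all 3 others for 133 genes (9.41%), with 13 genes meeting both conditions in addition and 618 genes (43.7%) meeting neither. For the 1101 lower genes, the non-responder library lay at least 2-fold above all 3 others for 331 genes (30.1%) and the responder library at least 2-fold below all 3 others for 152 genes (13.8%), while 609 genes (55.3%) met neither condition. Whether low RNA capture in the non-responder library has a part in the genes that are low or at 0 there was not tested.

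**Figure D2:**
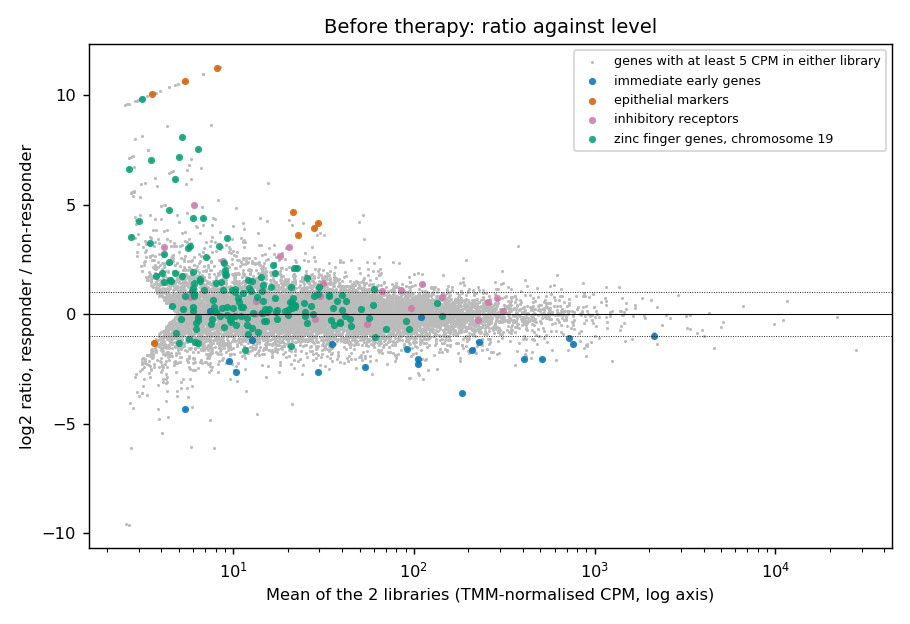
Each point is a gene before therapy, with the mean of the 2 libraries in TMM-normalised CPM on a log axis and the log2 ratio of responder over non-responder on the y axis, and colours mark 4 gene lists. Dotted lines stand at 2-fold, the immediate early genes (blue) lie mostly below the lower line, and the epithelial markers (orange) and some zinc finger genes (green) reach ratios above 4 at low levels.

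Inhibitory receptors were higher in the responder library. Members of a gene list are counted here where they had at least 1 CPM in either library, and over the 17560 genes of the files that meet this, 15.9% were at least 2-fold higher and 14.0% at least 2-fold lower in the responder, with a median log2 ratio of 0.04. Setting counts of 0 to the floor of 3 counts left every list median given here as it was. Counts of list members that lay apart from all 3 other libraries use the filter of 1 CPM and include genes meeting both conditions. The shares over all genes beside them were taken at 5 CPM without those genes, and were not computed at 1 CPM. Of the inhibitory receptors, 21 of 21 had at least 1 CPM, 9 of them were at least 2-fold higher and 0 at least 2-fold lower, and their median log2 ratio was 0.79. CD200R1 (ENSG00000163606, chromosome 3: 112921209 to 112975122), which binds CD200 on other cells and dampens immune cells, stood at 11.8 versus 0.368 CPM before and 26.9 versus 13.5 CPM after treatment (log2 ratio before therapy 4.98, interval 4.42 to 5.66). The lowest of the 4 levels was in the earlier non-responder library, and the later non-responder library lay near the earlier responder library. BTLA (ENSG00000186265, chromosome 3: 112463968 to 112499561), a receptor for HVEM, stood at 7.42 versus 0.874 CPM before and 7.41 versus 4.56 CPM after treatment, with a log2 ratio of 3.08 (95% interval 2.69 to 3.50). CD101 stood at 36.5 versus 4.34 CPM before and 28.5 versus 19.2 CPM after treatment (log2 ratio before therapy 3.07, interval 2.89 to 3.25). PDCD1 (ENSG00000188389, chromosome 2: 241849881 to 241858908) stood at 31.4 versus 4.98 CPM before and 28.7 versus 7.88 CPM after treatment (log2 ratio before therapy 2.65, interval 2.49 to 2.83), so that the responder libraries lay together above both non-responder libraries. Both earlier libraries carry the PD-1-positive tag, and a gate on PD-1 is not stated. The part of sorting in the ratio of this gene was not tested. TIGIT, a receptor for nectin-like molecules, stood at 159.8 versus 60.5 CPM before and 230.2 versus 41.9 CPM after treatment, and HAVCR2, which encodes TIM-3, at 45.6 versus 17.1 CPM before therapy. LAG3 and CTLA4, which bind ligands on antigen-presenting cells, lay close together in the libraries, at 105 versus 87.1 CPM and 13.2 versus 13.1 CPM, so that the list did not move as 1 block.

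Costimulatory receptors and ligands were higher in the responder library too. All of the 18 listed genes had at least 1 CPM, 9 were at least 2-fold higher, 0 at least 2-fold lower, and the median log2 ratio was 0.91. TNFSF14, a ligand that costimulates T cells through HVEM, stood at 33.2 versus 7.3 CPM before and 24 versus 6.03 CPM after treatment (log2 ratio before therapy 2.18, interval 2.04 to 2.33). The SLAM family receptors SLAMF1, SLAMF6 and SLAMF7, which bind their own kind on neighbouring cells, stood at 47.4 versus 14.6 CPM, 283 versus 90.9 CPM and 413 versus 148 CPM before therapy. Their log2 ratios were 1.70 (interval 1.60 to 1.81), 1.64 (1.60 to 1.68) and 1.48 (1.45 to 1.51). Activating and inhibitory receptors of the NK type had a median of 0.39. Of these 18 genes, 3 were at least 2-fold higher, a share near the 15.9% of all genes, and 0 lower. The 3 higher genes were KLRC1, the inhibitory lectin-like receptor NKG2A, at 33.4 versus 9.58 CPM, the adaptor gene SH2D1B at 41.2 versus 13.0 CPM and CD160 at 116 versus 53.4 CPM. The NK cell markers NCAM1, NCR1 and KLRF1 stood at 4.26 versus 7.05 CPM, 16.3 versus 14.2 CPM and 95.7 versus 85.2 CPM, each under 2-fold apart.

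**Figure D3:**
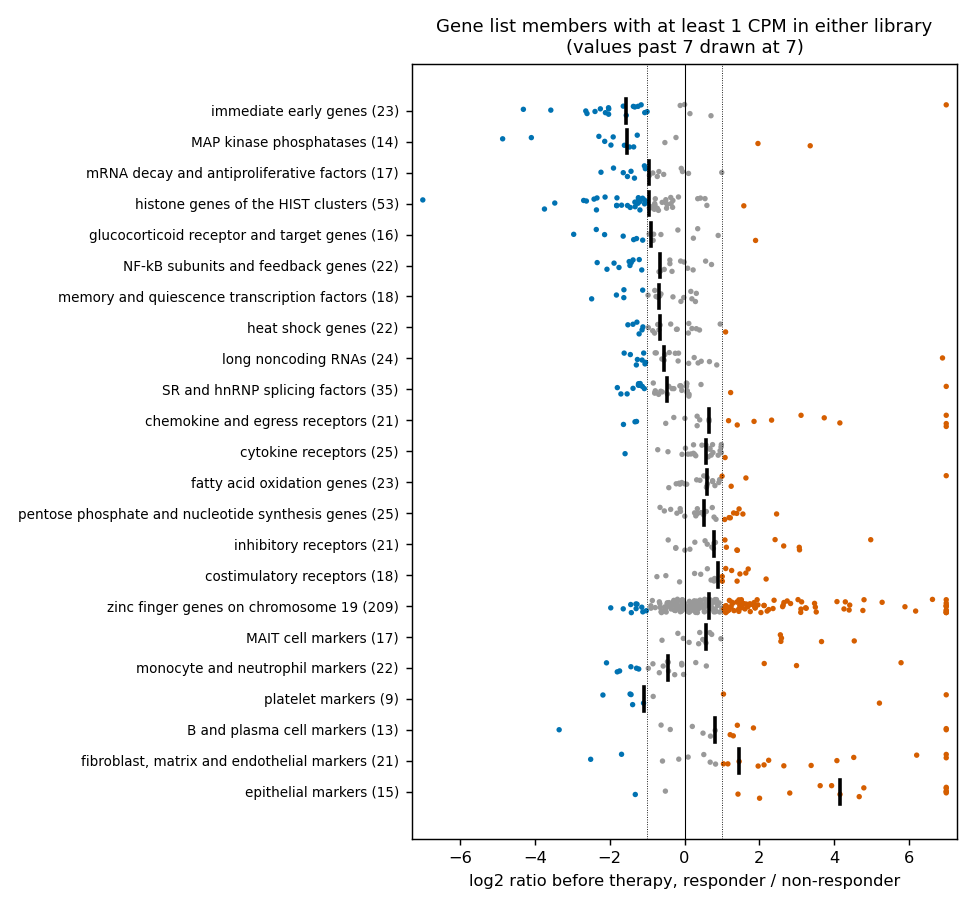
Each point is a gene of the list named on the left, with the number of its members that had at least 1 CPM in brackets, and the x axis gives the log2 ratio of responder over non-responder before therapy. Orange and blue points are at least 2-fold higher and lower, grey points lie within 2-fold, and black bars mark medians, from -1.56 for immediate early genes to 4.16 for epithelial markers.

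Receptors for chemokines and for exit from lymphoid tissue were divided. Of 21 genes with at least 1 CPM, 10 were at least 2-fold higher and 3 at least 2-fold lower in the responder, with a median of 0.66. CCR2 (ENSG00000121807, chromosome 3: 46353734 to 46360928), a receptor for monocyte-attracting chemokines that effector T cells also carry, had 17.0 CPM in the responder before therapy, where the non-responder library held no count, and 17.8 versus 22.7 CPM after treatment. Against a floor of 3 counts in the non-responder library the responder level was at least 369-fold higher, and the missing counts set this library apart from all 3 others. CXCR6 (ENSG00000172215, chromosome 3: 45940933 to 45948353), a receptor that guides T cells into tissues, stood at 46.3 versus 2.59 CPM before and 48.1 versus 22.1 CPM after treatment (log2 ratio before therapy 4.16, interval 3.94 to 4.39). CXCR1 and CXCR2, the receptors for interleukin-8, stood at 15.0 versus 0.0307 CPM and 25.4 versus 1.90 CPM before therapy, and CXCR1 rested on 2 counts in the non-responder library (log2 ratio 8.65, interval 7.08 to 11.98). CX3CR1 (ENSG00000168329, chromosome 3: 39263494 to 39281735), the fractalkine receptor of circulating cytotoxic cells, stood at 679 versus 78.2 CPM before and 379 versus 162 CPM after treatment (log2 ratio before therapy 3.12, interval 3.08 to 3.16). Here both responder libraries lay above both non-responder libraries. CD69, which holds cells in tissue by opposing the egress receptor S1PR1, was higher in the non-responder, at 285 versus 883 CPM before therapy, while S1PR1 stood at 157 versus 43.2 CPM.

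Transcripts of mucosal-associated invariant T (MAIT) cells, which recognise microbial vitamin metabolites, were higher in the responder library. Of 17 listed markers, 5 were at least 2-fold higher, 0 at least 2-fold lower, and the median was 0.57. SLC4A10 (ENSG00000144290, chromosome 2: 161424332 to 161985282), a bicarbonate transporter used as a MAIT marker, stood at 20.2 versus 3.40 CPM before and 7.54 versus 16.5 CPM after treatment (log2 ratio before therapy 2.56, interval 2.36 to 2.77). The interleukin-23 receptor gene IL23R stood at 5.52 versus 0.429 CPM before and 1.33 versus 6.05 CPM after treatment, and the receptor kinase gene LTK stood at 8 versus 1.33 CPM before and 2.64 versus 10.5 CPM after treatment. In all 3 of these genes the order of responder and non-responder was reversed after therapy, and the lowest level was that of the non-responder library before therapy. KLRB1 and ZBTB16, which MAIT cells carry but other lymphocytes carry too, stood at 73.4 versus 50.6 CPM and 22.7 versus 25.6 CPM, under 2-fold apart. All 17 markers summed to 688 versus 623 CPM before and 598 versus 931 CPM after treatment. More MAIT cells and more RNA of these genes per cell cannot be told apart in bulk RNA. The earlier non-responder library had the fewest detected genes, as given above, and the part of this in the MAIT ratios was not tested. The gamma-delta T cell markers showed no such difference, with a median of -0.18 over 5 genes, 0 of them at least 2-fold apart, and TRGC2 at 270.1 versus 249.9 CPM.

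Cytokine receptors lay mostly above 0 by less than 2-fold. Their median log2 ratio was 0.57 over 25 genes, or 0.30 over those of at least 10 CPM, and 21 of them were above 0. Only 1 was at least 2-fold higher, a smaller share than the 15.9% of all genes, and 1 at least 2-fold lower. The first was IFNAR1, a chain of the type I interferon receptor, at 47.3 versus 22.3 CPM, and the second IL6ST, the shared chain of the interleukin-6 receptor family, at 21.0 versus 63.3 CPM. Of 21 JAK, STAT and feedback genes, 2 were at least 2-fold higher and 3 lower, with a median of 0.09, and 3 feedback genes are given here that were chosen after their values were seen. CISH (ENSG00000114737, chromosome 3: 50606490 to 50611831), an inhibitor induced by STAT5 in T cells, stood at 96.3 versus 8.99 CPM before and 89.3 versus 57.7 CPM after treatment (log2 ratio before therapy 3.42, interval 3.30 to 3.54), and was 10.7-fold higher in the responder. SOCS1 and SOCS3, inhibitors of JAK kinases and of interleukin-6 type receptors, stood at 6.24 versus 21.0 CPM and 15.4 versus 54.1 CPM, and the kinase gene PIM3 at 28.7 versus 181 CPM, all lower in the responder. The cytokine list held 3 genes at least 2-fold higher and 5 lower of 19, with IL24 at 21.7 versus 7.90 CPM, TNFSF8 at 37.4 versus 15.6 CPM, TNFSF9, the ligand of 4-1BB, at 4.31 versus 12.8 CPM, and the epidermal growth factor family ligand AREG at 1.31 versus 10.2 CPM. The cytokine list thus moved in no common direction. Among chemokines, 2 of 8 were at least 2-fold higher and 2 lower, and the median was 0.27, or -0.42 over members of at least 10 CPM. Single chemokines were XCL1 at 11.4 versus 5.40 CPM, CXCL16 at 6.54 versus 2.47 CPM, CCL28 at 12.9 versus 31.4 CPM and CCL3 at 59.1 versus 121 CPM. CCL3, which has near-identical copies whose reads the counting may divide, fell short of 2-fold with library size as the only scaling.

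The GTPases of the immunity-associated protein (GIMAP) family, which support lymphocyte survival, were higher in the responder as a group. They were singled out after 4 of them appeared among the 12 genes with the largest ratio among those of at least 100 CPM, and their common direction is therefore a description. GIMAP6 (ENSG00000133561, chromosome 7: 150625375 to 150632648) stood at 111 versus 17.9 CPM before and 120.3 versus 52.2 CPM after treatment (log2 ratio before therapy 2.63, interval 2.55 to 2.72). GIMAP5 (ENSG00000196329, chromosome 7: 150716557 to 150750033) stood at 329 versus 58.1 CPM before and 261 versus 131 CPM after treatment (log2 ratio before therapy 2.50, interval 2.45 to 2.55). The other family members GIMAP1, GIMAP2, GIMAP4, GIMAP7 and GIMAP8 stood at 100.4 versus 19.9 CPM, 68.1 versus 12.8 CPM, 490.3 versus 123 CPM, 612 versus 206 CPM and 31.9 versus 11.9 CPM before therapy, with log2 ratios from 1.42 to 2.41. All 7 genes lie side by side on chromosome 7, between 150450630 and 150750033, and the files give GIMAP1 and GIMAP5 a shared start, so some of their reads may be shared. The remaining abundant genes with the largest ratios on the side of the responder were CX3CR1 and the immunophilin gene FKBP5 at 103 versus 27.6 CPM, the sialyltransferase gene ST6GAL1 at 129 versus 24.7 CPM, the sorting protein gene SNX20 at 101 versus 25.3 CPM, TRIM27 at 105 versus 24.7 CPM, PREB at 138 versus 27.5 CPM, the noncoding HCP5 at 165 versus 44.7 CPM, and FN1, which is described with the matrix genes.

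Immediate early genes were lower in the responder library. Of 23 genes with at least 1 CPM, 18 were at least 2-fold lower, 1 at least 2-fold higher, and the median log2 ratio was -1.56. NR4A2 (ENSG00000153234, chromosome 2: 156324432 to 156342348), an orphan nuclear receptor, stood at 28.6 versus 341 CPM before and 62.4 versus 139 CPM after treatment, with a log2 ratio of -3.58 (interval -3.64 to -3.52). Its level was lowest in the responder and highest in the non-responder library before therapy. NR4A3 stood at 0.516 versus 10.4 CPM, the small Maf factor gene MAFF at 8.18 versus 51.0 CPM, and EGR1, a zinc finger factor, at 2.92 versus 17.8 CPM before therapy. CSRNP1, a nuclear protein gene induced with them, stood at 36.6 versus 174 CPM. The gene on the other side was FOSL1, an AP-1 subunit, at 3.54 CPM in the responder and with no count in the non-responder.

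The inhibitors that end such responses were lower in the responder as well. Among the MAP kinase phosphatases and Sprouty genes, 10 of 14 were lower and 2 higher by 2-fold or more, with a median of -1.54. DUSP4 (ENSG00000120875) stood at 2.34 versus 40.2 CPM before and 5.44 versus 7.88 CPM after treatment (log2 ratio before therapy -4.10, interval -4.32 to -3.89), so that the non-responder library before therapy lay above all others. The related phosphatases were lower in the responder as well. DUSP5 stood at 10.2 versus 49.99 CPM, DUSP8 at 6.70 versus 26.2 CPM and DUSP2, a phosphatase of activated lymphocytes, at 462 versus 2029 CPM. NF-kB subunits and feedback genes had a median of -0.66, with 10 of 22 at least 2-fold lower and 0 higher. These included the subunit RELB at 10.6 versus 53.6 CPM, the deubiquitinase TNFAIP3 at 234 versus 986 CPM, the inhibitor NFKBIA at 379 versus 1400.2 CPM and BCL3 at 13.2 versus 44.4 CPM. Among factors of mRNA decay and growth arrest, 8 of 17 were at least 2-fold lower, 0 at least 2-fold higher, and the median was -0.94. Products of this list shorten the life of cytokine and growth transcripts. The ribonuclease gene ZC3H12A stood at 37.4 versus 176 CPM, ZFP36, which binds AU-rich cytokine mRNAs, at 176 versus 655 CPM, and the antiproliferative BTG1 and BTG2 at 449 versus 1293 CPM and 102 versus 318 CPM. For 5 of the 8 lower genes of this list the responder library lay at least 2-fold below all 3 other libraries. Over all lower genes of at least 5 CPM this share was 13.8%.

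**Figure D4:**
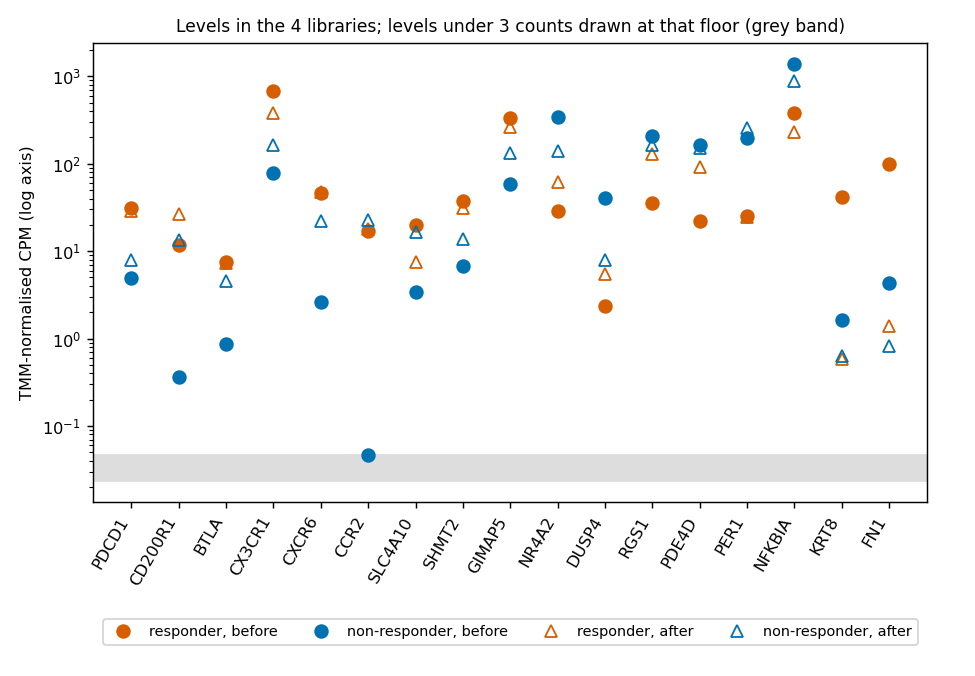
Levels of 17 genes in the 4 libraries are given in TMM-normalised CPM on a log axis, with filled circles for libraries before and open triangles for libraries after therapy, orange for the responder and blue for the non-responder. CD200R1, CXCR6, CCR2 and SLC4A10 are lowest in the non-responder before therapy, DUSP4 is highest there, at 40.2 CPM, and KRT8 and FN1 stand out in the responder before therapy at 41.2 and 100.2 CPM.

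Single signalling regulators were lower in the responder too. RGS1, which shortens G protein signals from chemokine receptors, stood at 35.2 versus 205 CPM before and 129 versus 163 CPM after treatment (log2 ratio before therapy -2.54, interval -2.60 to -2.48). RGS2 stood at 94.5 versus 304 CPM before therapy, and 3 of 10 RGS genes were at least 2-fold lower, with 0 higher. The median of the RGS list was -0.12, but 0.38 over its members of at least 10 CPM, so the list has no firm direction. PDE4D (ENSG00000113448, chromosome 5: 58969038 to 60522120), a phosphodiesterase that degrades cAMP, stood at 22.1 versus 166 CPM before and 92.7 versus 152 CPM after treatment (log2 ratio before therapy -2.91, interval -2.98 to -2.83), the lowest level being that of the responder before therapy. Cell cycle inhibitors and GADD45 genes held 5 of 20 genes at least 2-fold lower and 0 higher. The stress sensors GADD45A and GADD45G stood at 17.8 versus 72.1 CPM and 0.600 versus 11.2 CPM, BTG3 at 24.1 versus 90.3 CPM and CDKN2C, an inhibitor of CDK4 and CDK6, at 4.86 versus 11 CPM. Among genes of at least 100 CPM, those with the largest ratios on the side of the non-responder also included the ubiquitin ligase gene PELI1 at 24.5 versus 117 CPM, the autophagy gene ATG2A at 40.5 versus 228 CPM, TMEM2 at 27.3 versus 187 CPM and ENC1 at 15.4 versus 102 CPM.

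Genes that answer to glucocorticoid hormones and to the time of day were lower in the responder, with exceptions. Of 16 genes on the glucocorticoid list, 7 were lower and 1 higher by 2-fold or more, with a median of -0.89. PER1 (ENSG00000179094, chromosome 17: 8140472 to 8156506), a clock gene that glucocorticoids induce, stood at 25.4 versus 198 CPM before and 24.6 versus 256 CPM after treatment (log2 ratio before therapy -2.96, interval -3.03 to -2.90), with both responder libraries below both non-responder libraries. DDIT4, an inhibitor of mTORC1, stood at 66.7 versus 293 CPM and the insulin receptor substrate gene IRS2 at 3.36 versus 17.3 CPM. FKBP5, a co-chaperone of the glucocorticoid receptor and itself a target, went the other way at 103 versus 27.6 CPM before and 219 versus 152 CPM after treatment. On the clock list, 5 of 18 genes were lower and 3 higher by 2-fold or more, and the median was -0.42. The repressors NFIL3 and BHLHE40 stood at 29.9 versus 103 CPM and 105 versus 418 CPM, and CLOCK, a subunit of the activator, at 17.8 versus 4.98 CPM. The labels give no time of day for the blood draws.

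Transcription factors of memory and quiescence were lower in the responder by their median, -0.68 over 18 genes, with 5 at least 2-fold lower and 0 higher. These were MYB at 0.948 versus 5.34 CPM, BCL6 at 6.48 versus 22.9 CPM, KLF7 at 7.70 versus 23.7 CPM, SKI at 1.74 versus 5.37 CPM and TSC22D3, which glucocorticoids also induce, at 1009 versus 2190.4 CPM. TCF7, which encodes the factor TCF-1 of stem-like T cells, stood at 109 versus 135 CPM (log2 ratio -0.31, interval -0.35 to -0.27). Effector factors had a median of -0.37. Of 19 genes, 3 were at least 2-fold higher and 3 lower, shares near the 15.9% and 14.0% of all genes. The 3 higher ones were EOMES at 208 versus 95.2 CPM, BATF at 55.5 versus 25.6 CPM and RUNX2 at 20.1 versus 9.19 CPM. The list of terminal exhaustion and tissue residency genes was divided, with 4 higher and 6 lower of 18. Its members CXCR6 and CD101 were higher, while NR4A2 and RGS1, described with the immediate early and signalling genes, were lower, and TOX, a factor that sustains exhausted cells, stood at 84.6 versus 73.0 CPM.

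Enzymes of nucleotide synthesis were higher in the responder. Of 25 genes of the pentose phosphate, one-carbon and nucleotide pathways, 8 were at least 2-fold higher, 0 at least 2-fold lower, and the median was 0.51. SHMT2 (ENSG00000182199, chromosome 12: 57229327 to 57234935), the mitochondrial serine hydroxymethyltransferase that feeds one-carbon units to purine synthesis, stood at 37.4 versus 6.78 CPM before and 31.5 versus 13.6 CPM after treatment (log2 ratio before therapy 2.46, interval 2.32 to 2.61). The cytosolic folate enzyme gene MTHFD1 stood at 56.8 versus 19.2 CPM, UMPS, which completes uridine monophosphate, at 29.1 versus 10.6 CPM, and PAICS, of purine synthesis, at 20.7 versus 7.87 CPM. Fatty acid oxidation genes had a median of 0.59, but 4 of 23 were at least 2-fold higher and 0 lower, a share on the higher side near the 15.9% of all genes. They included the carnitine carrier gene SLC25A20 at 133 versus 55.8 CPM, the thiolase gene ACAA2 at 171 versus 85.2 CPM, and EHHADH at 5.05 CPM in the responder with no count in the non-responder. Of 24 cholesterol genes, 2 were at least 2-fold higher, a share below the 15.9% of all genes, and 4 lower, a share near the 14.0%. NSDHL, a late enzyme of the pathway, stood at 16.8 versus 5.97 CPM, and IDI1, an early isomerase, and SC5D at 120.1 versus 604 CPM and 9.30 versus 28.1 CPM. IDI2-AS1, a noncoding gene named as antisense to IDI2, a neighbour of IDI1, stood at 22.7 versus 168 CPM, and since the strand setting of the counting is not stated, reads of antisense and overlapping genes cannot be told apart.

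Heat shock genes, splicing factors and long noncoding RNAs had medians below 0. Heat shock genes had a median of -0.67, with 6 of 22 at least 2-fold lower and 1 higher. The chaperone of the endoplasmic reticulum HSPA5 stood at 883 versus 2048 CPM, its helper DNAJB9 at 44.9 versus 109 CPM, DNAJB4 at 7.83 versus 22.4 CPM and BAG3 at 9.90 versus 25.8 CPM. The unfolded protein and integrated stress response list had 4 higher and 3 lower of 23, shares near the 15.9% and 14.0% of all genes. Its median was 0.12, or -0.19 over members of at least 10 CPM. Its members include the factor DDIT3 at 56.1 versus 201 CPM, PPP1R15A, which restores translation, at 128 versus 381 CPM and the pseudokinase gene TRIB3 at 29.9 versus 13.6 CPM. Of 35 SR and hnRNP splicing factors, 10 were at least 2-fold lower and 2 higher, with a median of -0.46. These proteins choose splice sites in nuclear transcripts. TRA2A stood at 43.9 versus 152 CPM, HNRNPH1 at 128 versus 418 CPM, SRSF6 at 95.4 versus 276 CPM and SRSF7 at 500.1 versus 1299 CPM. Long noncoding RNAs had a median of -0.54, with 8 of 24 at least 2-fold lower and 1 higher. The nuclear MALAT1 (ENSG00000251562, chromosome 11: 65497762 to 65506516) stood at 13729.9 versus 42034 CPM before and 16322 versus 22602 CPM after treatment (log2 ratio before therapy -1.61, interval -1.62 to -1.61), LINC-PINT at 84.8 versus 231 CPM, and the snoRNA host genes SNHG15 and SNHG8 at 102 versus 249.6 CPM and 26.1 versus 62.5 CPM. All 15 mitochondrially encoded genes lay below 0, with a median of -0.65 and 1 gene at least 2-fold lower, MT-ATP8 of the ATP synthase, at 284 versus 634 CPM. The ribosomal MT-RNR2 stood at 10116 versus 11939.7 CPM. The mitochondrial share of all counts was 4.03% (responder) and 5.43% (non-responder). The medians of immediate early, heat shock, noncoding and mitochondrial genes were thus lower in the same library, and the part of RNA quality or sample handling in this was not tested.

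Histone genes of the HIST clusters were lower in the responder, and zinc finger genes on chromosome 19 were higher. Of 53 histone genes with at least 1 CPM, out of 87 in the files, 26 were at least 2-fold lower and 1 higher, with a median of -0.94. HIST1H3D stood at 2.04 versus 12.6 CPM before and 0.565 versus 2.26 CPM after treatment (log2 ratio before therapy -2.62, interval -2.88 to -2.39). HIST1H2AH stood at 1.98 versus 6.95 CPM, HIST1H4E at 8.08 versus 26 CPM and HIST2H2AC at 8.73 versus 25.1 CPM before therapy. For 19 of the 26 lower histone genes the non-responder library lay at least 2-fold above all 3 other libraries. Over all lower genes of at least 5 CPM this share was 30.1%. Replication-dependent histone mRNAs lack a poly(A) tail, and several histone genes are near-identical copies, so the single values are uncertain. Of 209 zinc finger genes on chromosome 19 with at least 1 CPM, 86 were at least 2-fold higher and 10 lower, with a median of 0.65, or 0.40 over those of at least 10 CPM. ZNF416 stood at 10.3 versus 0.0307 CPM before and 6.03 versus 6.49 CPM after treatment, with 2 counts in the non-responder before therapy. ZNF615 and ZNF613 stood at 12.7 versus 0.0613 CPM and 10.001 versus 0.0613 CPM, and ZNF607 stood at 6.23 CPM in the responder with no count in the non-responder. For 67 of the 86 higher zinc finger genes the non-responder library lay at least 2-fold below all 3 others, and for 5 the responder library lay at least 2-fold above all 3 others. Over all higher genes of at least 5 CPM these shares were 46.0% and 9.41%. The zinc finger genes have low levels, and the non-responder library had the fewest detected genes, as given above, whose part in this direction was not tested.

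Cell cycle genes were divided. Of 51 genes with at least 1 CPM, 17 were at least 2-fold higher and 6 at least 2-fold lower in the responder, with a median of 0.37, or 0.07 over those of at least 10 CPM. The spindle motor gene KIF11 stood at 6.03 versus 1.44 CPM before and 12 versus 0.250 CPM after treatment. PLK1, a mitotic kinase, stood at 5.82 versus 1.56 CPM and CDC20, which activates the anaphase-promoting complex, at 10.4 versus 2.99 CPM. These mitotic genes were higher in the responder. Higher in the non-responder were CCNE1, the cyclin of entry into S phase, at 4.37 versus 15.1 CPM, and MKI67, a marker of dividing cells, at 18.1 versus 36.5 CPM before and 8.91 versus 0.402 CPM after treatment. Among DNA methylation genes 3 were at least 2-fold higher and 3 lower of 17, shares near the 15.9% and 14.0% of all genes. UHRF1 (ENSG00000276043, chromosome 19: 4903080 to 4962154), which guides maintenance methylation, stood at 10.05 versus 1.01 CPM before and 6.07 versus 0.250 CPM after treatment (log2 ratio before therapy 3.30, interval 2.95 to 3.70). TET1 and TET3, enzymes that oxidise methylated cytosine, stood on opposite sides, at 18.7 versus 8.28 CPM and 3.29 versus 10.01 CPM.

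Transcripts of epithelium and of matrix-producing cells were higher in the responder library. Of 22 epithelial markers, 15 reached 1 CPM, 13 were at least 2-fold higher and 1 lower in the responder, and the summed level of all 22 was 253 versus 23.2 CPM before and 9.63 versus 11.2 CPM after treatment. The keratin KRT8 (ENSG00000170421, chromosome 12: 52897187 to 52949954) stood at 41.2 versus 1.61 CPM before and 0.589 versus 0.625 CPM after treatment (log2 ratio before therapy 4.67, interval 4.40 to 4.97). The keratins KRT18 and KRT19, which form filaments in simple epithelia, stood at 42.4 versus 3.42 CPM and 55.4 versus 3.10 CPM. The tight junction gene CLDN4 and the laminin chain LAMB3 stood at 16.3 and 7.10 CPM in the responder with no count in the non-responder, and so did the adhesion molecule EPCAM at 4.71 CPM. ELF3, an epithelial transcription factor, did not follow, at 2.26 versus 3.22 CPM. Of 25 fibroblast, matrix and endothelial markers, 13 of the 21 with at least 1 CPM were at least 2-fold higher and 2 lower, and all 25 summed to 702 versus 367 CPM before and 564 versus 753 CPM after treatment. FN1 (ENSG00000115414, chromosome 2: 215360440 to 215436172), the fibronectin gene, stood at 100.2 versus 4.34 CPM before and 1.41 versus 0.831 CPM after treatment (log2 ratio before therapy 4.53, interval 4.36 to 4.70). The caveolin gene CAV1 stood at 7.3 versus 0.0920 CPM, COL1A1 at 18.9 versus 6.87 CPM, and CTGF at 13.5 CPM in the responder with no count in the other 3 libraries. The endothelial marker VWF stood at 0.264 versus 0 CPM before therapy. PECAM1, which is counted with the endothelial markers but which T cells also carry, stood at 152 versus 142 CPM before and 320 versus 242 CPM after treatment. For 12 of the 13 higher epithelial and 9 of the 13 higher matrix genes the responder library lay at least 2-fold above all 3 others. Over all higher genes of at least 5 CPM this share was 9.41%. The part of RNA from epithelial and matrix-producing cells in the other ratios of the responder library was not tested.

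Markers of other blood cells were low beside those of T cells in both libraries. The 23 monocyte and neutrophil markers summed to 152 versus 248 CPM before and 2086 versus 10222 CPM after treatment. Their median log2 ratio was -0.45 before therapy, or -0.82 over those of at least 10 CPM, with 3 higher and 6 lower of 22. The lysozyme gene LYZ stood at 8.25 versus 35.1 CPM, CEBPB at 14.6 versus 39.4 CPM and AIF1 at 8.07 versus 19.7 CPM, while S100A8 and FCN1 were under 2-fold apart, at 25 versus 33.6 CPM and 11.6 versus 12.2 CPM. Platelet markers had 5 lower and 3 higher of 9, with PPBP at 10.8 versus 29.2 CPM, GP1BB at 2.03 versus 9.23 CPM, GNG11 at 5.23 versus 13.7 CPM and TUBB1 at 8.84 versus 18.9 CPM. On the side of the responder were ITGB3 at 3.09 CPM with no count in the non-responder, ITGA2B at 1.38 versus 0.0307 CPM and SPARC, which matrix-producing cells also express, at 66.0 versus 32.0 CPM. The 14 platelet markers summed to 103 versus 113 CPM, so the list was divided. B and plasma cell markers were mostly higher in the responder, with 6 higher and 1 lower of 13 and a median of 0.82, or 0.46 over members of at least 10 CPM. CD79B and BLK stood at 28.3 versus 11.5 CPM and 8.55 versus 2.38 CPM, MS4A1 at 25 versus 32.5 CPM and the immunoglobulin J chain gene, named IGJ in the files, at 0.912 versus 9.39 CPM. Of the red cell markers only 3 of 10 had at least 1 CPM, with HBB at 0.216 versus 15.5 CPM, and ALAS2 stood at 0.120 versus 0 CPM. The dendritic cell markers CD1C, CLEC4C and CLEC9A stood at 1.46 versus 1.58 CPM, 0.180 versus 0 CPM and 0 versus 1.47 CPM, and the most abundant gene of that list, GZMB, is shared with cytotoxic T cells. CD4, of helper T cells, and FOXP3, of regulatory T cells, stood at 4.48 versus 4.82 CPM and 2.02 versus 3.68 CPM, and CD40LG, a ligand of helper T cells, at 5.14 versus 2.55 CPM. Of 9 melanocyte markers, 5 had at least 1 CPM, 1 higher and 2 lower, with S100B, which lymphocytes also express, at 1.56 versus 5.64 CPM.

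The largest ratios on the side of the responder belonged to genes with few or no counts in the non-responder. Those on the side of the responder, with at least 5 CPM and 50 reads there, included CCR2, CLDN4, PDLIM4, CTGF, NPTX1, MMP7, HYAL2, CXCR1, AKAP12, ZNF416 and EHD2. PDLIM4, the neuronal pentraxin gene NPTX1, the matrix protease gene MMP7 and HYAL2 were at 0 in the non-responder library, and against its floor the responder level was at least 296-fold higher for PDLIM4 and at least 206-fold higher for HYAL2, with NPTX1 (at least 230.2-fold) and MMP7 (at least 214-fold) between them. AKAP12 and EHD2 had 1 count there, and stood at 6.24 and 5.70 CPM in the responder. PDLIM4, CTGF, MMP7, AKAP12 and EHD2 stood under 0.2 CPM in both later libraries, whereas CCR2, HYAL2 and ZNF416 stood between 6.03 and 22.7 CPM there. These genes therefore include some that were high in the responder library alone and some that were at or near 0 in the non-responder library alone. The 12 genes in the other direction were RASD2 and LONRF2, with no count in the responder (at least 147-fold lower for RASD2, at least 141-fold lower for LONRF2), HBB, ARHGEF10 at 0.0720 versus 5.35 CPM, the semaphorin receptor gene PLXNA2 at 0.168 versus 11.5 CPM, FMN1 at 0.180 versus 7.91 CPM, USP32P1 at 0.324 versus 8.40 CPM, GRASP at 1.12 versus 26 CPM, NBEA at 0.360 versus 7.35 CPM, NR4A3, GADD45G and DUSP4.

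The pair after therapy shares no library with the pair before therapy, and some of the differences recurred in it. Among 11532 genes that reached 5 CPM in both pairs, 5.32% were higher and 5.52% lower in the responder by 2-fold or more after therapy. Of the 1259 genes among them that were at least 2-fold higher before therapy, 212 genes (16.8%) were at least 2-fold higher after therapy and 53 genes (4.21%) at least 2-fold lower. Of the 850 genes that were at least 2-fold lower before therapy, 232 genes (27.3%) were at least 2-fold lower after therapy and 23 genes (2.71%) at least 2-fold higher. The sign of the ratio was the same after therapy for 77.9% of the higher and 83.4% of the lower genes, at any size. The same share over all genes was not computed. The labels do not say whether the 2 pairs come from the same people. The list medians before and after therapy were -1.56 and -1.76 for immediate early genes, -0.94 and -1.34 for histone genes, 0.79 and 0.38 for inhibitory receptors, 0.65 and 0.37 for zinc finger genes, and 0.66 and -0.25 for chemokine and egress receptors. They were 0.57 and -0.79 for MAIT markers and 0.82 and -1.17 for B and plasma cell markers, whose directions thus differed between the pairs.

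**Figure D5:**
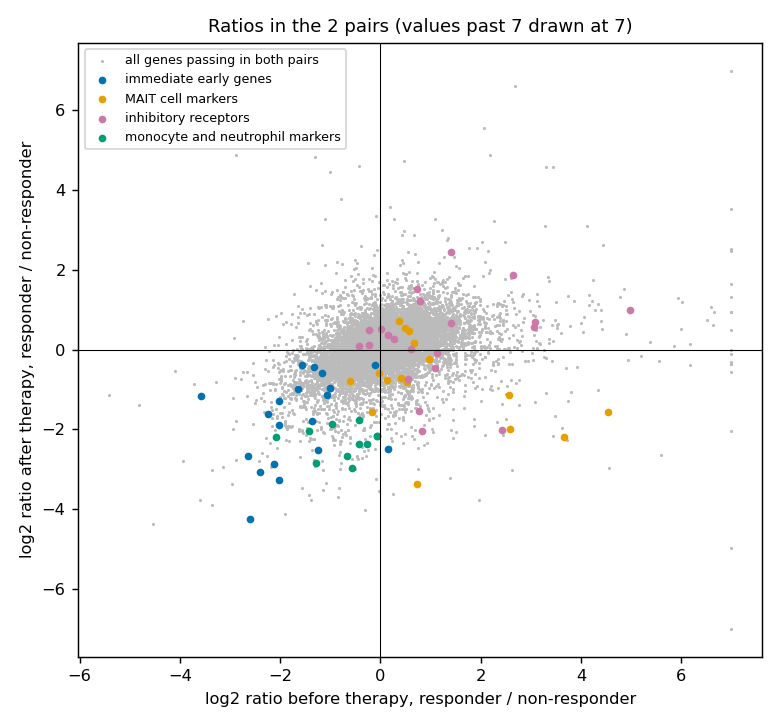
Each point is a gene that reached 5 CPM in both pairs, with the log2 ratio of responder over non-responder before therapy on the x axis and after therapy on the y axis, and colours mark 4 gene lists. Immediate early genes (blue) lie mostly in the lower left, and MAIT markers (yellow) such as SLC4A10, at 2.56 before therapy, lie below 0 after therapy.

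Of the genes that were at least 2-fold apart in opposite directions in the pairs, 6 a direction with the largest ratios in both are named. Higher in the responder before and lower after therapy were CTSL, GPR128, HMOX1, IL23R, PLXNB2 and SCRN1. The cathepsin gene CTSL stood at 5.56 versus 0.0307 CPM before and 0.809 versus 25.4 CPM after treatment, and the heme oxygenase gene HMOX1 at 6.66 versus 0.276 CPM before and 9.48 versus 73.8 CPM after treatment. GPR128, an adhesion receptor, stood at 6.70 CPM in the responder with no count in the non-responder before, and 0.0157 versus 12.7 CPM after treatment. CTSL and HMOX1 are abundant in monocytes and macrophages, whose markers summed to 10222 CPM in the non-responder library after therapy, and the part of these cells in the turn was not tested. Lower before and higher after therapy were MDGA1 at 3.65 versus 26.8 CPM before and 11.4 versus 0.384 CPM after treatment, ZNF77 at 2.88 versus 7.10 CPM before and 5.44 versus 0.188 CPM after treatment, and CCDC136, NME8, PRSS30P and ZFYVE9. Among interferon-stimulated genes, OAS1, which senses double-stranded RNA, stood at 60.3 versus 13.2 CPM before and 54.4 versus 107 CPM after treatment, and RSAD2, which encodes viperin, at 7.17 versus 1.04 CPM before and 10.4 versus 27.1 CPM after treatment. Both were chosen after their values were seen. Of the 40 listed interferon-stimulated genes 6 were at least 2-fold higher before therapy, a share near the 15.9% of all genes. Only 1 was lower, a smaller share than the 14.0% of all genes, and the median was 0.11. After therapy 3 were higher and 8 lower, with a median of -0.17. The shares of all genes after therapy, 5.78% higher and 8.88% lower, were taken at 5 CPM and not computed at 1 CPM. OAS1 was under 2-fold apart after therapy (-0.98), and OAS2 was on the side of the responder in both pairs, at 85.6 versus 33.0 CPM before and 127 versus 103 CPM after treatment.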

How the data were processed

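Bulk RNA-seq of 4 libraries with 101-base paired reads was used, as the labels' protocols state. Per the submitters' processing notes, bcl2fastq 1.8.4 made the reads and TopHat2 placed them on hg38. How the authors made counts from the alignments, with which strand setting and annotation, is not given in the sources used here. Each deposited file holds whole-number counts for 64253 Ensembl genes, per the file headers. Genes on alternate or unplaced contigs (4146) and sex-informative genes (651) were left out, which leaves 59456, while library totals keep all counts. The deposited tables' other column used is coding length.

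Scaling used TMM (edgeR 4.0.16, R 4.3.3) over 24081 genes that passed filterByExpr with a design of response and time over the 4 libraries. For log2 ratios 0.5 was the prior count, with 95% exact intervals of the binomial share of the pair's counts; reads carry no stated molecular identifiers. A count of 0 was set to a floor of 3 counts for bounds, 0.0360 CPM (responder) or 0.0460 CPM (non-responder). The ratio and interval were tested on simulated data. No test was run, since each group held 1 library. The genome reference at hand was of mouse, so no sequence is shown.

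The 63 gene lists, the members and the rules were chosen with earlier results of these data known. Lists are described where their median passed 0.5 in size, where 25% or more of their detected members were at least 2-fold apart, or where they mark the sort or another cell type. Named genes are up to 4 members of each such list with the largest ratio, from those with at least 5 CPM, the 12 genes a direction with the largest ratio (at least 5 CPM and 50 reads), the 12 with the largest ratio among genes of at least 100 CPM, and the 6 a direction that turned after therapy; receptor segment, HLA and KIR genes and clone names were passed over, and some genes that the rule takes are left out of the report. Genes chosen after seeing their values, outside the rule, were GIMAP2, GIMAP7, GIMAP8, CISH, SOCS1, SOCS3, S1PR1, CD69, TCF7, TOX, TIGIT, HAVCR2, LAG3, CTLA4, MT-RNR2, MKI67, KLRB1, ZBTB16, FOSL1, TSC22D3, KRT19, OAS1, OAS2, RSAD2, ITGB3, ITGA2B, SPARC and the defining markers of other cell types that the rule did not take. Alternatives were DESeq2 1.42.0 size factors, TMM on the pair alone, library size only, other filters, a prior count of 5 and a threshold on the interval's bound.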

Additional observations from a re-analysis of the deposited data

Results flagged for a closer look

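For 3 lists the medians were past 0.5 in opposite directions in the pairs before and after therapy, with 1 library a group, and the difference between the pairs was not tested. The median log2 ratio was 0.57 for MAIT cell markers before and -0.79 after therapy. B and plasma cell markers had 0.82 before and -1.17 after therapy. The 3 red cell markers with at least 1 CPM had -1.60 before and 0.86 after therapy, the latter being the ratio of HBA1 alone. All 3 were at least 2-fold lower in the responder before therapy, whereas after therapy 1 was at least 2-fold higher and 1 lower. HBB did not turn, with a log2 ratio of -6.12 before and -6.18 after therapy. The summed level of the red cell list was lower in the responder in both pairs.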

How the results depend on the processing

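The counts of 1414 genes higher and 1101 lower in the responder stayed within 1.5 times under DESeq2 size factors, TMM on the pair alone, library size only, a minimum of 10 CPM, a prior count of 5 and a threshold on the interval's bound. Other filters gave 2785 and 2461 (at least 1 CPM), 9913 and 6377 (no filter), and, chosen after seeing the data, 541 and 492 (mean of at least 20 CPM over the 4 libraries) and 74 and 138 (mean of at least 100 CPM), since each tests other genes. The shares of higher genes past 2-fold the same and the opposite way after therapy were 19.5% and 14.1% at a minimum of 1 CPM, those of lower genes 33.9% and 6.0%, and at 10 CPM the opposite shares were 1.98% and 1.23%. TMM on the pair alone was not run for these shares. Of the 42 list medians, all but that of melanocyte markers could be taken over members of at least 10 CPM. There 13 moved without changing sign, among them cell cycle genes to 0.07, cytokine receptors to 0.30 and red cell markers to -6.12 (1 gene), and 3 changed sign: chemokines -0.42, RGS proteins 0.38, and the unfolded protein and integrated stress response -0.19; the cause was not tested. Of 242 genes checked, CCL3 fell short of 2-fold with library size only (-0.95). Other genes close to the threshold under the main scaling, such as MKI67 (-1.01) and ACAA2 (1.00), can also cross it with the choice of scaling. Leaving a library out leaves nothing to compare, and genes with few or no counts in the non-responder library have wide or 1-sided intervals. No paired analysis was possible because each group holds 1 library and the labels tie no library to a patient.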
